A study of Chlorocebus sabaeus with 10 samples.

Results

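The miRNAs described here are the products of a pair of related miRNA clusters, listed in the table under the human names hsa-miR-192-5p (MIMAT0000222), hsa-miR-192-3p (MIMAT0004543), hsa-miR-194-5p (MIMAT0000460), hsa-miR-194-3p (MIMAT0004671) and hsa-miR-215-5p (MIMAT0000272). They were chosen by name, and these 5 names are among the 2588 mature miRNA names in the count table. They occupy 6 table rows, because miR-194-5p is listed at each of 2 hairpins. miR-215-3p, the opposite arm of mir-215, was added for the comparison of arms. Livers came from 10 female vervet monkeys (Chlorocebus sabaeus), 5 fed a high fructose (HFr) diet and 5 a chow diet for 6 weeks. Every animal had been kept on chow before the study. The series was designed to compare miRNA expression in the liver between the HFr and chow diets. The headers of the library columns, however, are serial numbers found in no label of any animal. No library was therefore assigned to a diet, and the values below are the deposited total over all libraries, which has no replicates and allows neither an SD across animals nor a comparison of HFr with chow. When the table was inspected, 1 of the 10 numbered libraries was seen to be almost empty, so the total comes in effect from the others, with deeper libraries weighing more.

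Each cluster encodes a miR-192 or miR-215 hairpin beside a miR-194 hairpin. In the human genome mir-192 lies with mir-194-2 next to the autophagy gene ATG2A, and mir-215 lies with mir-194-1 within the span of IARS2, which encodes the mitochondrial isoleucyl-tRNA synthetase. miR-192-5p and miR-215-5p share a seed, the short stretch near the 5′ end through which a miRNA recognizes its targets, whereas miR-194-5p has a different seed. Both clusters are known from human and mouse work as epithelial miRNAs of liver, intestine and kidney, driven by the hepatocyte nuclear factors and induced by p53. In the vervet gene table (assembly mChlSab1.0.hap1), IARS2 stood between RAB3GAP2 and BPNT1, and ATG2A between PPP2R5B and EHD1, on different chromosomes. That table lists 0 genes of type miRNA, so the positions of the vervet hairpins are not given here.

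All 5 members had reads, and they differed in abundance by up to 798-fold. miR-194-5p had 46304 reads at mir-194-2 (95% exact Poisson interval 45883 to 46728) and 31630 reads at mir-194-1 (31282 to 31981). miR-192-5p had 17980 reads (17718 to 18245). A gap of more than an order of magnitude separated these from the remaining members. miR-194-3p had 371 reads (334.2 to 410.7), miR-192-3p had 82 reads (65.2 to 101.8) and miR-215-5p had 58 reads (44.0 to 75.0). miR-215-3p had 1 read (0.025 to 5.57). The intervals of miR-192-3p and miR-215-5p overlapped, and their ratio of 1.41 had an exact binomial interval of 0.998 to 2.01, so at this depth the order of these 2 names was not resolved. All other neighbouring names in the order, from miR-194-5p down to miR-215-3p, had intervals that did not overlap. All intervals here cover counting error only, since no molecular identifiers are named and sequencing reads are not independent molecules.

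**Figure D1:**
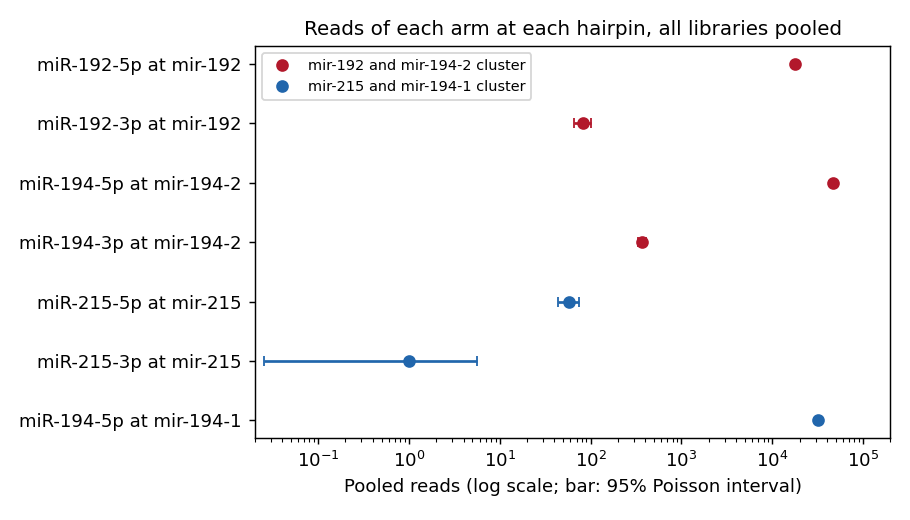
Pooled reads of each arm at each hairpin, on a log axis, with 95% exact Poisson intervals as bars (all libraries pooled, counting error only). The 5p arms of mir-192 and of both miR-194 hairpins lie between 17980 and 46304 reads, whereas both arms of mir-215 lie at 58 reads or below.

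Together the members contributed 64795 of 2043164 reads when each name was counted once at its highest row, or 3.17% of the liver miRNA pool (Wilson interval 3.15 to 3.20%). Without miR-122-5p, which dominates hepatocyte miRNA, they made up 5.78% of the remaining 1120636 reads. miR-194-5p supplied 71.5% of the members' reads and miR-192-5p 27.7%. The 5p arms together supplied 99.3% of them, and miR-215-5p alone 0.0895%. The reads of these clusters in the liver pool were thus almost entirely those of miR-194-5p and miR-192-5p.

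miR-194-5p, which is known to restrain the mesenchymal adhesion molecule N-cadherin in liver cells, ranked 6 of 2588 names with 2.27% of reads (Wilson interval 2.25 to 2.29%). Taken at its mir-194-1 row it would stand at position 11. The names just above and below it were miR-378a-3p (51168 reads) and miR-26b-5p (44887 reads). miR-194-5p had 1.03 times the reads of miR-26b-5p (interval 1.02 to 1.05), and its mir-194-1 row lay below that count. miR-192-5p, which is known in kidney cells to repress the transcription factor ZEB2, ranked 21 with 0.880% (0.867 to 0.893%). That rank counts miR-199a-3p and miR-199b-3p, which had the same 22258 reads, as separate names. miR-192-5p lay between miR-30c-5p (18020 reads) and miR-101-3p (17736 reads). Its ratio was 0.998 to miR-30c-5p (interval 0.977 to 1.02) and 1.01 to miR-101-3p (0.993 to 1.04), so that miR-192-5p was not separated from either by depth.

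The minor members stood far lower in the pool but above most detected names. Reads were found for 680 names, and their median was 16 reads. miR-194-3p, the opposite arm of mir-194-2, ranked 125 and exceeded 555 of these names (81.6%). It lay between miR-432-5p (383 reads) and miR-328-3p (370 reads). miR-192-3p ranked 219 and exceeded 458 names (67.4%). It shared its count of 82 with miR-10a-3p, miR-493-3p and miR-99a-3p. miR-215-5p, known as a p53-induced miRNA that arrests the cell cycle in human tumor cells, ranked 243 and exceeded 435 names (64.0%), with the same count as miR-1277-5p and miR-511-5p. The shares of the pool were 0.0182% for miR-194-3p, 0.00401% for miR-192-3p and 0.00284% for miR-215-5p.

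**Figure D2:**
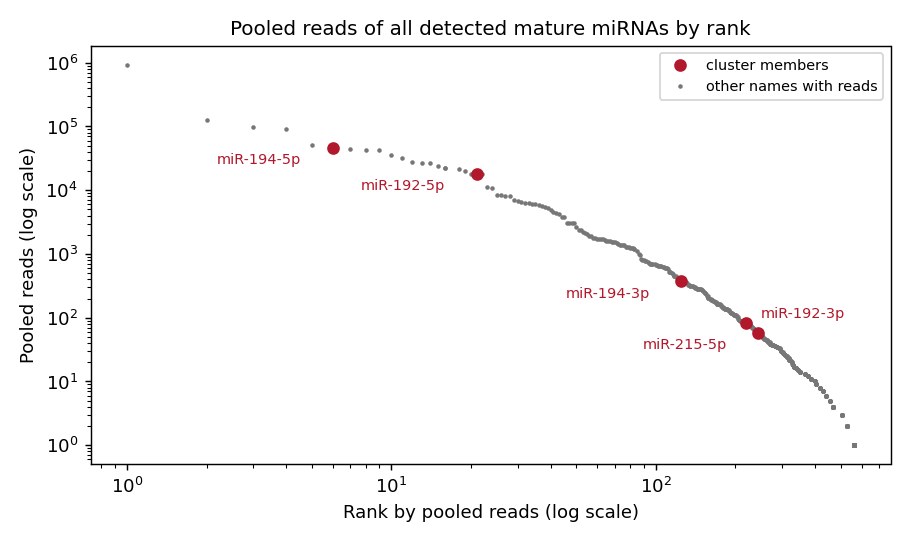
Pooled reads of each of the 680 detected names (log axis) against rank (log axis), with the 5 members in red. miR-194-5p at rank 6 and miR-192-5p at rank 21 sit near the top of the curve, and miR-194-3p, miR-192-3p and miR-215-5p sit at ranks 125 to 243.

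The paralogs miR-192-5p and miR-215-5p, which share a seed, stood far apart in the pool. miR-192-5p had 17980 reads, against 58 for miR-215-5p, a ratio of 310.0 (exact binomial interval 239.7 to 408.4). With both arms added, mir-192 had 18062 reads and mir-215 had 59, a ratio of 306.1 (237.2 to 402.3). Both counts rest on 1 row each, so this ratio does not depend on how the rows of one name are combined. Mature sequences of the 2 paralogs are nearly alike, and how the counting tool placed reads that fit both was not tested.

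Each miRNA was then compared with its cluster mate. At the mir-192 and mir-194-2 locus, miR-194-5p had 2.58 times the reads of miR-192-5p (interval 2.53 to 2.62) at its mir-194-2 row. The ratio was 1.76 at the mir-194-1 row and 4.33 with both rows added, a sum that can count the same reads at both. At the mir-215 and mir-194-1 locus, miR-194-5p had 545.3 times the reads of miR-215-5p (421.7 to 718.4). Each locus ratio takes its own row of miR-194-5p at face value, and either row can hold reads that came from the other hairpin. The mature sequence of miR-194-5p is the same at both hairpins, so reads of the mature length cannot tell the loci apart. Only miR-192 and miR-215 arms and miR-194-3p are listed at a single hairpin.

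A list of 17 hairpin pairs that lie together in the human genome was used to place these ratios, and 16 of them had reads for both mates. The list is not exhaustive and was drawn up with earlier results of these data known. The positions and the median therefore hold only within it. The median ratio of the higher to the lower mate was 5.87, and 6 of the 16 pairs exceeded 10-fold. mir-215 and mir-194-1 had the largest ratio of the 16, above mir-143 and mir-145, the smooth muscle and fibroblast pair (151.1, interval 134.4 to 170.6). mir-192 and mir-194-2 stood at position 14 at the mir-194-2 row, ahead of mir-221 and mir-222 (2.27) and mir-30e and mir-30c-1 (2.23). The position was 11 with both rows of miR-194-5p added and 16 at the mir-194-1 row, with the other pairs unchanged. This placing is a description of pooled reads, in which several pairs also share a mature miRNA with another locus, and ligation efficiency differs between miRNAs.

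**Figure D3:**
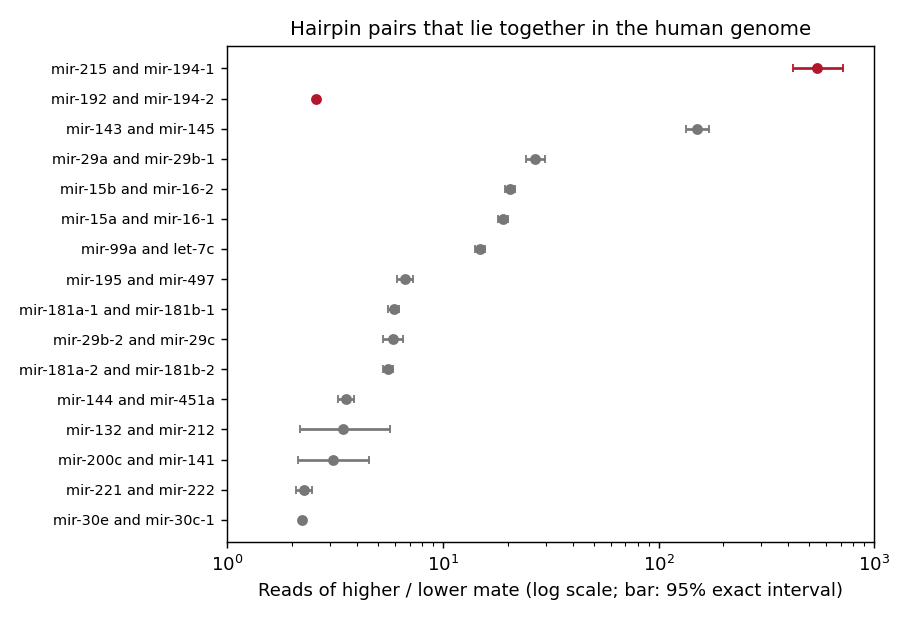
Ratio of reads of the higher to the lower mate (log axis, bars are 95% exact binomial intervals) for 16 hairpin pairs, using the most abundant arm of each hairpin, with the pairs of the miR-192, miR-194 and miR-215 clusters in red at the top. mir-215 and mir-194-1 lie at 545.3 and mir-192 and mir-194-2 at 2.58, against a median of 5.87 over the 16 listed pairs.

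The 2 rows of miR-194-5p were not near-copies of each other. The mir-194-2 row had 46304 reads and the mir-194-1 row 31630, a ratio of 1.46. The difference of 14674 reads was 31.7% of the higher row, and at least that many reads counted at mir-194-2 were not counted at mir-194-1. No interval is given for this ratio, because the rows can hold the same reads. Among names listed at several hairpins with at least 100 reads in the highest row, 25 of 28 had rows within 1.1-fold of each other, and the median ratio of highest to lowest row was 1.002. Not all of the 28 are separate sets of counts. miR-199a-3p and miR-199b-3p had the same highest and lowest rows, as had miR-517a-3p and miR-517b-3p. miR-194-5p had the second largest ratio of the 28, after miR-151b (39.7-fold, 1748 and 44 reads) and before miR-128-3p (1.23-fold). In reads, miR-194-5p accounted for 77.6% of the 18916 reads by which highest and lowest rows differed over all 28 names. Of the abundant names, let-7a-5p, let-7f-5p and miR-26a-5p had ratios of 1.002, 1.002 and 1.0004. With only names of at least 1000 reads the position of miR-194-5p was again 2, of 18 names. The origin of the difference was not tested.

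**Figure D4:**
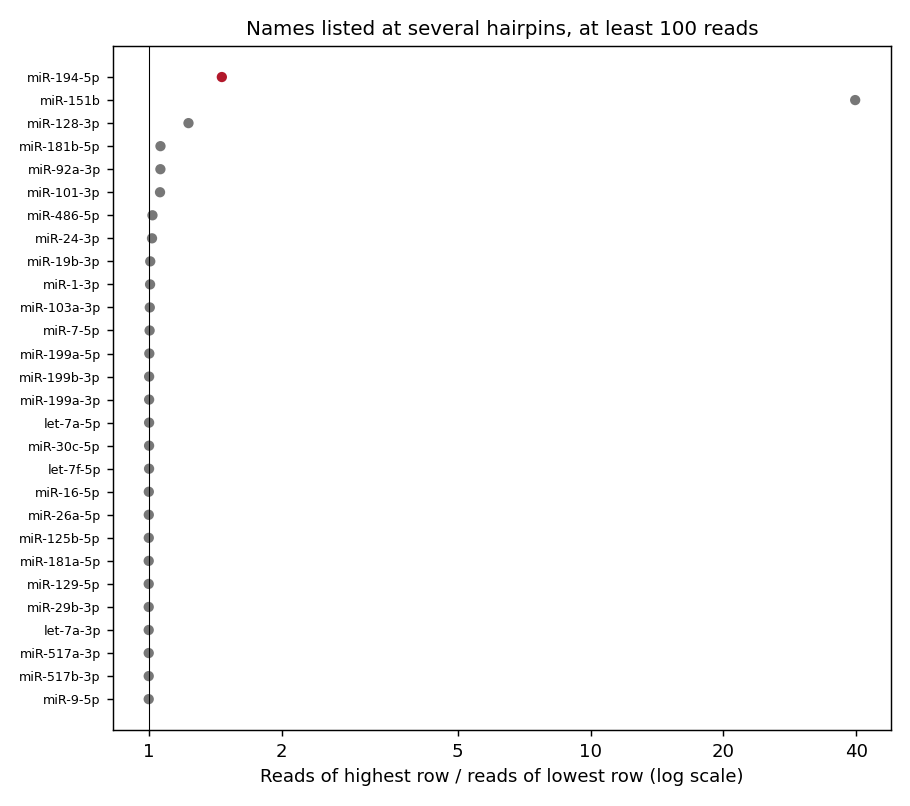
Ratio of the highest to the lowest table row (log axis) for the 28 names listed at several hairpins with at least 100 reads, with miR-194-5p in red at the top. miR-194-5p lies at 1.46 and miR-151b at 39.7, whereas 25 names lie below 1.1.

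Either arm of a hairpin, 5p or 3p, can be released as a mature miRNA, and the 5p arm prevailed throughout these clusters. In mir-192 there were 17980 reads of the 5p arm and 82 of the 3p arm, a 5p share of 99.5% (Wilson interval 99.4 to 99.6%). In mir-194-2 there were 46304 of the 5p arm and 371 of the 3p arm, a 5p share of 99.2% (99.1 to 99.3%). In mir-215 there were 58 of the 5p arm and 1 of the 3p arm, a 5p share of 98.3% (91.0 to 99.7%). For mir-194-1 only the 5p arm is listed.

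The share of the 3p arm was 0.454% in mir-192 (interval 0.366 to 0.563%) and 0.795% in mir-194-2 (0.718 to 0.880%), and the intervals did not overlap. The 3p arm of mir-194-2 held 1.16% (1.05 to 1.28%) when set against the 31630 reads of the mir-194-1 row. The 5p reads can include those of mir-194-1, so the 3p share of mir-194-2 can be too low. For mir-215 the 3p share of 1.69% had an interval of 0.300 to 9.00%, which covers the share in mir-194-2 and that in mir-192. Between the 3p arms, miR-194-3p had 4.52 times the reads of miR-192-3p (interval 3.55 to 5.82). The ratio between their 5p arms was 2.58 at the mir-194-2 row and 4.33 with both rows of miR-194-5p added. The ratio with both rows added lies within the interval of the 3p ratio, but that sum can count the same reads at both rows. The ratios at single rows, 2.58 and 1.76 (mir-194-1 row), lie below that interval. Whether this ratio differs between the arms was not tested.

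These arm shares were ordinary for the pool. As background, 179 hairpins had both arms listed and 100 or more reads, of which 100 had more 5p reads and 79 had more 3p reads. In the median hairpin the major arm held 99.1%, with quartiles of 92.0 and 99.8%. A larger share of the major arm than in mir-192 was found in 69 hairpins, and a larger share than in mir-194-2 in 83. mir-215, with 59 reads, fell below this minimum.

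**Figure D5:**
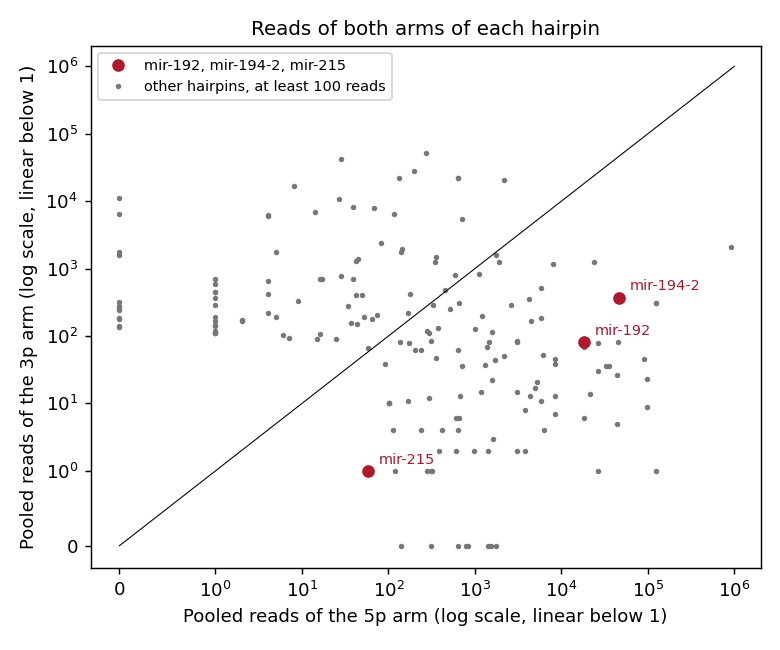
Pooled reads of the 5p arm (x axis) and of the 3p arm (y axis) of each hairpin, on log axes that turn linear below 1 so that counts of 0 can be shown. The line marks equal reads, and mir-192, mir-194-2 and mir-215 (red) lie below it with 5p shares of 98.3 to 99.5%.

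The clusters were set beside miRNAs that mark liver cell types. Among hepatocyte-enriched names, miR-194-5p had 46304 reads, against 922528 for miR-122-5p, which had 19.9 times as many (interval 19.7 to 20.1). miR-192-5p stood 51.3-fold below miR-122-5p (50.6 to 52.1). miR-194-5p had 1.66 times the reads of miR-148a-3p (27892 reads), a repressor of the LDL receptor, while miR-192-5p had 0.645 times as many (0.633 to 0.657). The members' 64795 reads compare with 970588 for 6 liver parenchymal names, 43939 for 4 mesenchymal names, 22537 for 2 endothelial names, 10867 for 3 red cell names, 2695 for 4 leukocyte names and 1933 for 5 biliary names. The lists after the parenchymal one were led by miR-143-3p (42313 reads), miR-126-3p (20344 reads), miR-486-5p (8488 reads), miR-142-3p (1242 reads) and miR-200b-3p (763 reads). The largest sums rest mostly on 1 name each. miR-122-5p gave 922528 of the parenchymal reads. After miR-143-3p, the next mesenchymal names, miR-214-3p and miR-199a-5p, had 711 and 635 reads, and the median of that list was 673. The sums therefore describe the listed names and do not measure cell types. Of the 6 liver parenchymal names 5 had reads, against 680 of 2588 over all names, and miR-802 had 0. With 3 reads set as the upper limit for a count of 0, its share was at most 0.000147%. That limit covers counting error only, and a vervet miRNA that differs from the human one can be missed. miR-122-5p, the defining miRNA of hepatocytes, was thus the most abundant name of a tissue labelled liver, and names of every other cell type listed were also present. In bulk tissue, fewer cells of a type and less RNA per cell cannot be told apart, and the part of each cell type in the members' reads was not tested.

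miR-192-5p, miR-194-5p and miR-215-5p are also counted among p53-responsive miRNAs, and a list of 15 such names was examined. Reads were found for 13 of the 15, against 680 of 2588 over all names, and at least 100 reads for 8. The median over the 15 names was 280. It includes the members and the names with 0 reads, whereas the pool median of 16 covers detected names only. The list holds well-studied miRNAs chosen by name, and no test was made of its counts. miR-194-5p led the list, followed by miR-143-3p, miR-16-5p (26518 reads) and miR-192-5p. The 12 other names together had 75947 reads. miR-34a-5p, the best known p53 target among miRNAs, had 3804 reads, against 46304 for miR-194-5p and 17980 for miR-192-5p. miR-194-5p had 12.2 times (interval 11.8 to 12.6) and miR-192-5p 4.73 times (4.56 to 4.90) the reads of miR-34a-5p. miR-215-5p (58 reads) lay below the median of the list and above miR-34a-3p and miR-34c-5p (8 reads each), miR-605-5p (2 reads) and miR-34c-3p (1 read), while miR-34b-5p and miR-34b-3p had 0. Whether p53 was active in these livers was not measured here.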

How the data were processed

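Small RNA was sequenced from 10 vervet livers (TruSeq small RNA kit, Illumina GAIIx) and quantified with miRDeep2, as the study's methods state. In the submitters' processing notes, cutadapt 1.10 and Bowtie are listed. For the small RNA data, the sources used here give no genome build or miRNA release. Rows carry human miRNA names, so reads of vervet miRNAs that differ from the human ones can be missed. The authors deposited raw counts in 1 table of 2948 rows, each a mature miRNA at 1 hairpin, and the total count over all libraries was used. The 20 library columns, raw and normalized for 10 libraries, match no sample label and were used in no computation. The total gives neither depth per library nor spread between animals.

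Where a name had several rows, the highest was used. Shares have Wilson intervals, counts exact Poisson intervals and ratios exact binomial intervals (95%). Their coverage was checked only on simulated independent reads of names with at least 10 reads. That check says nothing of amplified copies, differences between libraries, reads shared between rows or smaller counts. Alternatives were the sum of rows, the lowest row, names with identical counts counted once, and minimums of 10 or 1000 reads. Members, lists and cluster pairs were chosen with earlier results of these data known. The names to be given were the members, the names just above and below them, and leading list members. The names set beside miR-194-5p for the ratio of rows, and the list names with 0 to 8 reads, were chosen after their values were seen. No file used here holds mature sequences, so none are printed. Python 3.11.15 with numpy 2.4.6, pandas 2.3.3, scipy 1.17.1 and matplotlib 3.10.9 was used.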

Additional observations from a re-analysis of the deposited data

How the results depend on the processing

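Adding all rows of each name raised the share of miR-194-5p to 2.92% and that of the members together to 3.61%, because miR-194-5p was then counted at both hairpins. It lowered the shares of miR-192-5p (0.673%), miR-194-3p (0.0139%), miR-192-3p (0.00307%) and miR-215-5p (0.00217%), which have 1 row each, because the pool grew to 2669761 reads. Rows of one name can hold the same reads, so this sum can count a read more than once. With both rows added, miR-194-5p had 4.33 times the reads of miR-192-5p, in place of 2.58, and 1.76 times at the mir-194-1 row. The position of mir-192 and mir-194-2 among 16 pairs was then 11 and 16, in place of 14. The mir-194-1 row and these positions were examined after seeing the data. The lowest row gave miR-194-5p 1.56%. Counting names with identical counts once gave it 2.30%, or 2.29% when identical hairpins were also required, an alternative chosen after seeing the data. Leaving miR-122-5p out of the pool, also chosen after seeing the data, raised the members' share to 5.78%. Among hairpins with at least 1000 reads, 50.0% had a larger share of the major arm than mir-192 and 57.8% than mir-194-2, against 38.5% and 46.4% at 100 reads. The remaining alternatives moved shares and ratios by less than the counting interval, and the position of miR-194-5p by its rows was 2 in both cases. No paired analysis was possible because no column could be tied to an animal. Columns that match no sample label were left out of every computation, so totals without each library were not computed. Among the 5 members miR-215-5p had the fewest reads, 58 with an interval of 44.0 to 75.0.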
